A study of Mus musculus with 6 samples.

Results

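The transcripts described here are mouse genes whose introns or exons carry, or lie opposite, microRNA hairpins known from embryonic stem cells. The hairpins are miR-17/92, miR-22, miR-106b/25, miR-15b/16, miR-15a/16, miR-302 to miR-367, miR-26 and miR-301. Those of miR-302 to miR-367 lie opposite an intron of Larp7, on the other strand. Members were chosen by name and not by a cut on measured values, but earlier results of these data were known. Of 10 gene symbols, 9 were found among the 31879 genes of the isoform table, and 61 of their isoforms were used. Mir17hg, Mir22hg and Ska2 were listed as Mirhg1, RP23-384C18.7 and Fam33a and were recognised by transcript identifier or older symbol. No isoform could be matched to Dleu2, the known host of miR-15a and miR-16-1.

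A microRNA is cut from a hairpin within a longer RNA by the Microprocessor (Drosha and Dgcr8), trimmed by Dicer and loaded into an Argonaute protein. Its seed, the bases near its 5′ end, then pairs with matching sites in target messages. A host may be a noncoding RNA that serves mainly as the microRNA precursor, or a protein-coding gene with the hairpin in an intron that is removed by splicing. The spliced host RNA measured here is therefore not a measure of the mature microRNA.

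The cells are TT-FHAgo2, a clonal line of mouse embryonic stem cells that make Argonaute 2 (Ago2) under the control of doxycycline, and their polyA RNA was sequenced. One group of 2 libraries came from cells removed from doxycycline for 96 h. The other group of 2 came from cells raised to 2.5 µg/mL doxycycline for 48 h, a dose that the labels equate with wild-type Ago2. All cells had been propagated in 0.1 µg/mL doxycycline and grown in serum with leukemia inhibitory factor. Within each group the files number the libraries 0 and 1. Whether each library is a culture of its own is not given by the labels, so p-values here reflect only the spread between these samples, and that spread may be technical. Values are FPKM, fragments scaled by transcript length and library total, summed over the isoforms of a gene. Log2 changes are differences in log2(FPKM + 0.5), no doxycycline minus doxycycline, and understate changes of low genes. A change passed where limma's Benjamini-Hochberg adjusted p over 13268 genes was under 0.05, two-sided.

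Ago2 itself was measured at 28.7 and 28.8 FPKM without doxycycline, against 35.2 and 36.7 FPKM with it, a log2 change of -0.32 (SE 0.08, limma adjusted p = 0.0293). The call was lost with TPM, where each library is scaled to an equal total (-0.16, adjusted p = 0.149), with isoforms that match a known transcript in full (-0.82, adjusted p = 0.0517), with the most abundant isoform alone (-0.18, adjusted p = 0.413), and without any 1 of the 4 libraries (adjusted p = 0.0782 to 0.206). All 8 stem cell markers, Pou5f1 and Nanog among them, were detected, and their summed level was 2292 to 2485 FPKM without doxycycline and 2368 to 2513 FPKM with it. Of these, 1 was higher, 3 were lower and 4 did not pass, against 40.3% of all genes tested that passed. Nanog was the higher one, with means of 499 FPKM without and 343 FPKM with doxycycline. The lower ones had means of 401 and 563 FPKM (Zfp42), 32.9 and 44.1 FPKM (Klf4), and 3.01 and 8.12 FPKM (Dppa3), in the same order. Without doxycycline library 0 or 1 a single marker passed, as lower, and without no-doxycycline library 0 there were 1 higher and 1 lower. The 6 mesenchymal markers summed to 4.89 to 4.96 FPKM without doxycycline and 4.20 to 4.35 FPKM with it, with Col3a1 at 0 in every library. The 2 number-1 libraries, whose low values fell on steps of whole reads, had a depth of 46.7 M fragments without and 46.5 M fragments with doxycycline, and 3 reads on a transcript of 2000 nt correspond to 0.0353 and 0.0355 FPKM. The depth of the number-0 libraries is unknown.

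Several of the loci share seeds among their microRNAs, while the seeds of the Mir22hg and Ska2 microRNAs were found at 1 host each. RefSeq sequences (GRCm38.p6) were found for 20 of the 21 mature microRNAs looked for, and they hold 10 different seeds. The microRNAs below are those with a seed shared between hosts, followed by the microRNAs of Mir22hg and Ska2 and 1 of the miR-302 group. Each is written 5′ to 3′ with the seed, bases 2 to 8, in capitals. The first 4 share a seed between Mir17hg and Mcm7, and the next 3 between Mir17hg, Mcm7 and the Larp7 locus. The following 3 share one between Smc4 and the miR-15a locus, and the miR-26 pair shares one among the 3 Ctdsp genes. Larp7 stands for a position here, as its hairpins lie on the opposite strand.
miR-17-5p (Mir17hg): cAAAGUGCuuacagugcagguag
miR-20a-5p (Mir17hg): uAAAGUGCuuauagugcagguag
miR-106b-5p (Mcm7): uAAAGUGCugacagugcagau
miR-93-5p (Mcm7): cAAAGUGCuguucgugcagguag
miR-92a-3p (Mir17hg): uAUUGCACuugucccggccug
miR-25-3p (Mcm7): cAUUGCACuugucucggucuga
miR-367-3p (Larp7): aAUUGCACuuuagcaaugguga
miR-15b-5p (Smc4): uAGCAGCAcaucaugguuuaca
miR-16-5p (Smc4 and the miR-15a locus): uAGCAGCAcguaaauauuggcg
miR-15a-5p (the miR-15a locus): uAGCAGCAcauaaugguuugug
miR-26b-5p (Ctdsp1): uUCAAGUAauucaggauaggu
miR-26a-5p (Ctdsp2 and Ctdspl): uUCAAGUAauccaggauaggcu
miR-22-3p (Mir22hg): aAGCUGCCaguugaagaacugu
miR-301a-3p (Ska2): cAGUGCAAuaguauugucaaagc
miR-302b-3p (Larp7): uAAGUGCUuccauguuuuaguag

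The hosts did not move together. The noncoding hosts Mir17hg and Mir22hg were lower without doxycycline, the 3 phosphatase genes that carry miR-26 were higher, and Mcm7, Smc4, Larp7 and Ska2 did not pass. Thus 5 of the 9 measured hosts passed, against 40.3% of all genes tested, with 3 higher (19.4% of all genes) and 2 lower (20.9% of all genes). Without doxycycline library 0, 2 hosts passed, and without doxycycline library 1, 3 passed. The libraries of the conditions did not overlap for 7 hosts, as was the case for 73.1% of all genes. The median log2 change of the hosts was 0.08, against -0.06 over all genes tested, whose quartiles were -0.34 and 0.28. Among all genes that passed, 48.2% were higher without doxycycline, against 37.9% with library medians set equal and 67.7% with TPM. The TPM scaling moved the median of all genes to 0.10, and 5 hosts were then higher and 1 lower. As these are bulk samples, fewer cells of a kind and less RNA per cell cannot be told apart.

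**Figure D1:**
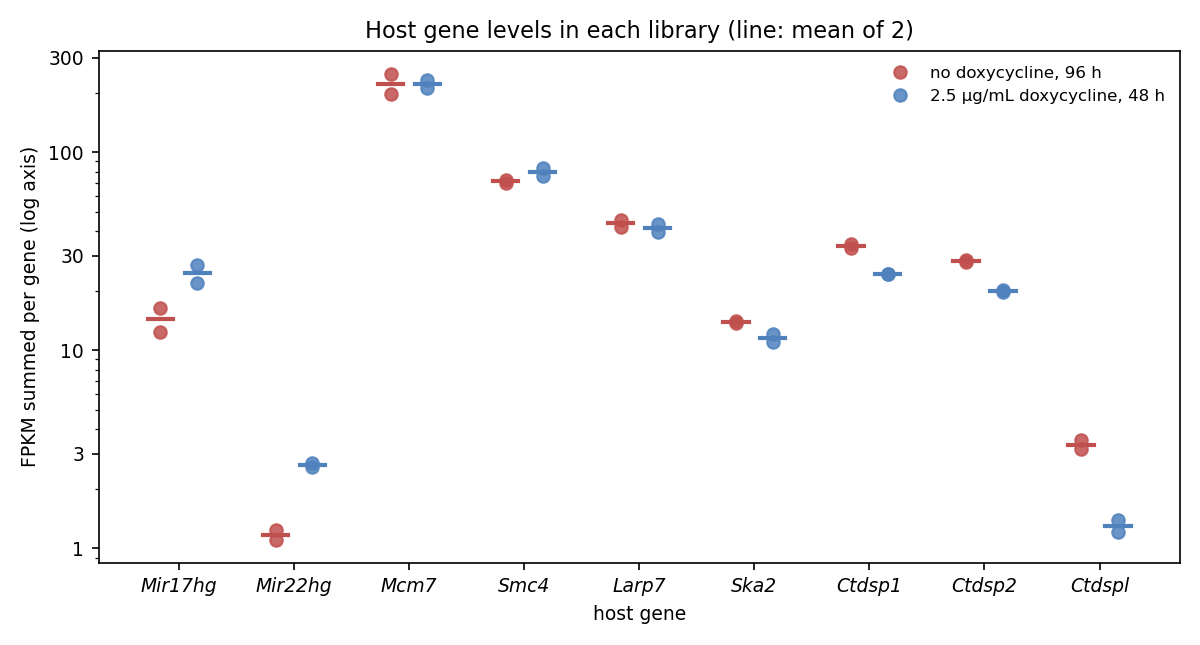
FPKM of each host gene (log axis) in the 2 libraries without doxycycline (red, left) and the 2 with 2.5 µg/mL doxycycline (blue, right); points are libraries and lines are means. Mir17hg and Mir22hg lie lower without doxycycline and the 3 Ctdsp genes higher, while the Mcm7 and Larp7 libraries overlap.

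Mir17hg is a noncoding RNA from which the 6 hairpins of the miR-17/92 cluster are cut, and the cluster is known for promoting proliferation. The gene lies at chr14:115440182-115445950 on the plus strand (NCBIM37). It was measured at 16.4 and 12.4 FPKM without doxycycline, against 27.0 and 21.9 FPKM with it. Both libraries without doxycycline lay below both with it. Its mean was 14.4 ± 2.82 FPKM without and 24.5 ± 3.61 FPKM with doxycycline (SD, n = 2 each). The log2 change was -0.75 (SE 0.17, limma adjusted p = 0.0238), and 5.81% of the genes tested had a lower one. The call was lost with TPM (-0.60, adjusted p = 0.0685) and without no-doxycycline library 1 (-0.56, adjusted p = 0.0528) or doxycycline library 0 (-0.60, adjusted p = 0.0595).

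All 7 Mir17hg isoforms used hold the 6 hairpins in exons. An assembled isoform of 2407 nt, left out for its class, has miR-17 partly in an exon and the other 5 hairpins in an intron, and it was listed at 0 in 3 of the 4 libraries and at 0.229 FPKM in no-doxycycline library 1. An isoform of 3536 nt and 2 exons made up between 71.2% and 80.0% of the gene's FPKM. Its level was 11.9 and 9.92 FPKM without doxycycline, against 20.03 and 15.6 FPKM with it. In the isoforms of 3063 nt and 4014 nt, 10 of the 12 hairpin ends coincide with ends of exons, and the bases between neighbouring hairpins are drawn as introns. The 3063-nt isoform had 2.41 and 1.19 FPKM without doxycycline, against 3.89 and 2.17 FPKM with it, and these libraries overlapped. The 4014-nt isoform had 0.552 and 0.566 FPKM without doxycycline, against 1.45 and 2.17 FPKM with it. An isoform of 3053 nt had 0.994 and 0.714 FPKM without doxycycline, against 1.68 and 1.88 FPKM with it.

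Mir22hg is the noncoding host of miR-22 and lies at chr11:75275041-75280178 on the plus strand. Its level was 1.11 and 1.24 FPKM without doxycycline, against 2.57 and 2.70 FPKM with it. The conditions did not overlap, and the libraries of each lay close together, with means of 1.17 ± 0.0893 FPKM without and 2.63 ± 0.0969 FPKM with doxycycline (SD, n = 2 each). The log2 change was -0.91 (SE 0.12, limma adjusted p = 0.00563), and 3.26% of the genes tested had a lower one. It was the lowest host without doxycycline. The hairpin lies in an exon of both isoforms, of which the one of 1752 nt held 68.3% to 86.4% of the FPKM. A 564-nt isoform of the neighbouring gene Tlcd2 shares 206 bases of these exons on the same strand and was listed at 0 in every library, so the split of reads there is uncertain. Tlcd2 as a whole had 2.82 and 2.42 FPKM without doxycycline, against 2.29 and 2.09 FPKM with it (log2 change 0.21, limma adjusted p = 0.222).

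**Figure D2:**
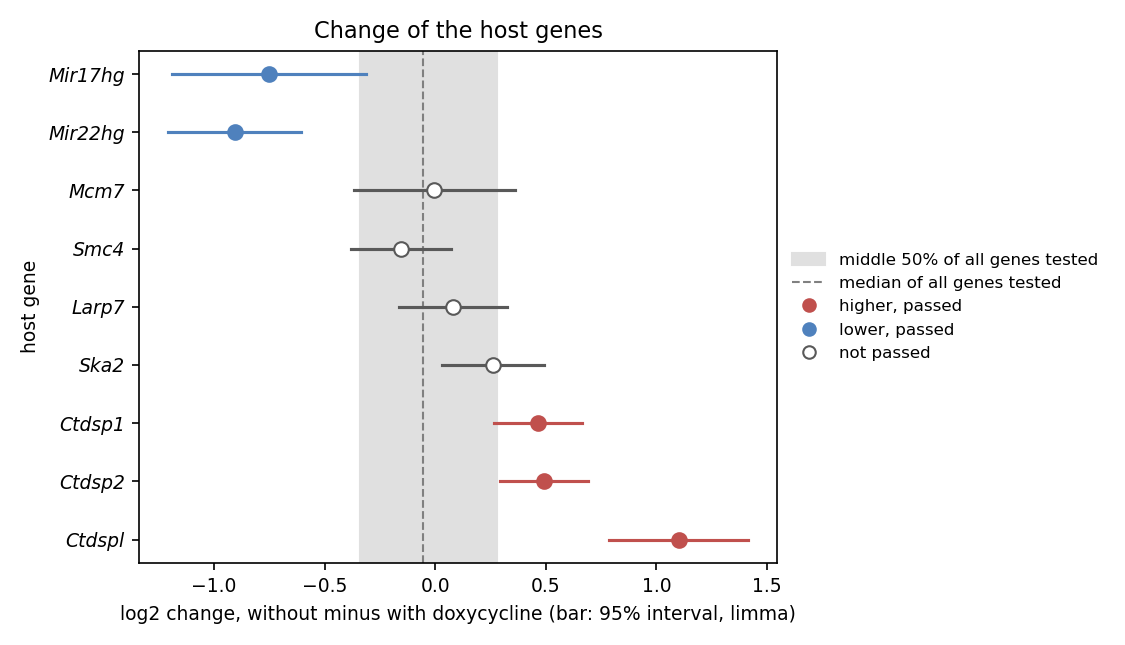
Log2 change of each host gene, without minus with doxycycline, with its 95% interval from limma; filled points passed, open points did not, and the grey band spans the quartiles of all genes tested. Mir22hg (-0.91) and Mir17hg (-0.75) lie left of the band, and Ctdsp1 (0.47), Ctdsp2 (0.49) and Ctdspl (1.10) lie right of it.

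Ctdsp1, Ctdsp2 and Ctdspl encode small phosphatases that act on the C-terminal domain of RNA polymerase II and work with the repressor REST, and each carries a miR-26 hairpin in an intron. Ctdsp1 (chr1:74438083-74443882, plus strand) had 33.0 and 34.3 FPKM without doxycycline, against 24.2 and 24.3 FPKM with it. Ctdsp2 (chr10:126415725-126437033, plus strand) had 28.0 and 28.5 FPKM without doxycycline, against 19.8 and 20.1 FPKM with it. Ctdspl (chr9:118835472-118953233, plus strand) had 3.53 and 3.17 FPKM without doxycycline, against 1.38 and 1.20 FPKM with it. In all 3 genes both libraries without doxycycline lay above both with it. The ratio of the means was 1.39 for Ctdsp1, 1.42 for Ctdsp2 and 2.59 for Ctdspl.

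By limma the log2 changes were 0.47 for Ctdsp1 (SE 0.08, adjusted p = 0.0105), 0.49 for Ctdsp2 (SE 0.08, adjusted p = 0.00903) and 1.10 for Ctdspl (SE 0.12, adjusted p = 0.00422). The Ctdspl change exceeded that of 96.4% of the genes tested. Without either doxycycline library the calls of Ctdsp1 and Ctdsp2 were lost, with adjusted p = 0.0660 and 0.0665 for Ctdsp1 and 0.0575 and 0.0513 for Ctdsp2, while the change stayed between 0.46 and 0.51.

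The miR-26b hairpin lies in intron 4 of 6 of the 2876-nt Ctdsp1 isoform, which held 92.1% to 96.3% of that gene's FPKM. The miR-26a-2 hairpin lies in intron 5 of 7 of the 4825-nt Ctdsp2 isoform and the miR-26a-1 hairpin in intron 5 of 7 of the 4706-nt Ctdspl isoform. A further Ctdsp2 isoform, of 4129 nt, starts within the miR-26a-2 hairpin and holds its last 9 bases. That isoform had 6.16 and 4.72 FPKM without doxycycline, against 3.36 and 1.45 FPKM with it (limma log2 change 1.10, SE 0.41, adjusted p = 0.290 over isoforms). The 4825-nt isoform had 16.8 and 18.7 FPKM without doxycycline, against 11.5 and 12.6 FPKM with it. The 4258-nt isoform, which starts at another first exon, had 4.87 and 4.71 FPKM without doxycycline, against 4.94 and 5.60 FPKM with it. In Ctdspl the leading isoform differed between libraries: the 4706-nt isoform held 64.3% and 40.3% without doxycycline and 37.3% and 18.1% with it.

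**Figure D3:**
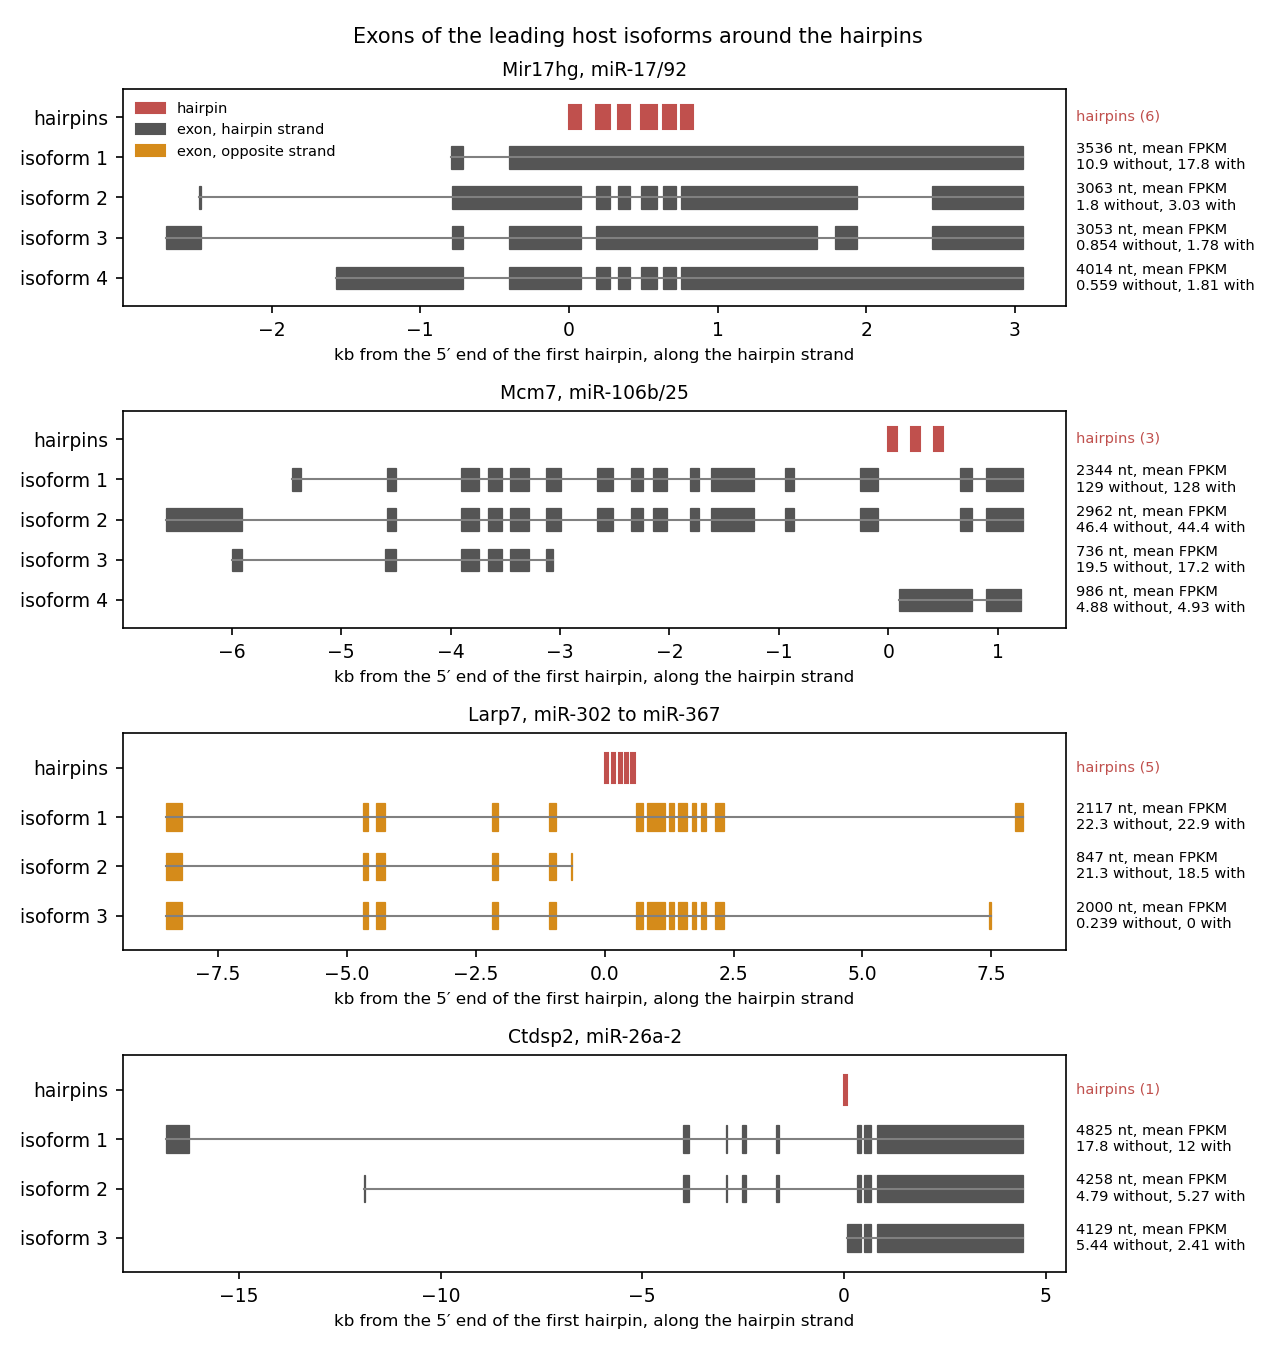
Exons (boxes) of the leading isoforms of 4 hosts against the hairpins (red), by distance in kb from the first hairpin along the hairpin strand; grey exons are on the hairpin strand and orange ones on the opposite strand. Hairpins fall in exons of Mir17hg, in an intron of the main Mcm7 and Ctdsp2 isoforms, and opposite an intron of Larp7.

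Mcm7 encodes a subunit of the MCM helicase that unwinds DNA for replication, and its gene (chr5:138605811-138613650, minus strand) carries miR-106b, miR-93 and miR-25. It was the highest host in every library, with 196 and 249 FPKM without doxycycline, against 211 and 233 FPKM with it. The conditions overlapped, and the log2 change was -0.00 (95% interval -0.37 to 0.36, limma adjusted p = 0.985). The direction is not settled: it was 0.16 with TPM and 0.17 without no-doxycycline library 0. The isoforms of 2344 nt and 2962 nt hold the 3 hairpins in intron 13 of 14. An isoform of 986 nt starts 21 nt beyond the 3′ end of the miR-106b hairpin and holds the hairpins of miR-93 and miR-25 in its first exon. It was measured at 4.58 and 5.18 FPKM without doxycycline, against 4.62 and 5.23 FPKM with it, between 2.08% and 2.33% of the gene. Exons of Mcm7 overlap exons of Ap4m1 and Cops6 on the opposite strand, and the libraries are labelled strand-specific.

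Smc4 is a core subunit of condensin, which compacts chromosomes for mitosis, and carries miR-15b and miR-16-2 in intron 5 of 23 of its 4316-nt isoform. The gene (chr3:68808660-68838545, plus strand) had 70.0 and 72.8 FPKM without doxycycline, against 76.2 and 83.2 FPKM with it. Both libraries without doxycycline lay below both with it, but the log2 change of -0.16 (95% interval -0.38 to 0.07) did not pass (limma adjusted p = 0.211) and was 0.00 with TPM. Ska2, a subunit of the Ska complex that couples kinetochores to microtubules, carries miR-301a in intron 1 of 3 of its 3037-nt isoform. The gene (chr11:86922710-86938137, plus strand) had 13.8 and 14.1 FPKM without doxycycline, against 12.2 and 11.0 FPKM with it. Here both libraries without doxycycline lay above both with it, and the log2 change of 0.26 (95% interval 0.03 to 0.49) did not pass (limma adjusted p = 0.0721). With TPM it passed at 0.42 (adjusted p = 0.0286). Exons of Ska2 overlap those of Gm11491 on the opposite strand.

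Larp7 binds and stabilises the 7SK RNA, which holds the elongation factor P-TEFb inactive. The gene (chr3:127239631-127256267, minus strand) had 41.9 and 45.7 FPKM without doxycycline, against 39.5 and 43.4 FPKM with it. The conditions overlapped, and the log2 change was 0.08 (95% interval -0.16 to 0.32, limma adjusted p = 0.536), with a call at 0.24 under TPM (adjusted p = 0.0467) and a change of -0.03 for isoforms that match a known transcript in full. The 5 hairpins of the cluster from miR-302b to miR-367 lie opposite intron 8 of 12 of its 2117-nt isoform, at chr3:127248146-127248725 on the plus strand. Larp7 is transcribed from the minus strand, so its RNA does not contain these microRNAs. Among transcripts of at least 200 nt in the deposited assembly, none on the plus strand covered the cluster. The 2117-nt isoform, which runs across the cluster, had 19.3 and 25.3 FPKM without doxycycline, against 19.1 and 26.8 FPKM with it. The 847-nt isoform, which starts beyond it in the direction of Larp7 transcription, had 22.7 and 19.9 FPKM without doxycycline, against 20.4 and 16.7 FPKM with it. Exons of Larp7 share 167 bases with an isoform of Zgrf1 on the opposite strand.

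The hairpins of miR-15a and miR-16-1 lie at chr14:62250717-62250947 on the minus strand. A gene listed as AC154660.1 (chr14:62221674-62301210) runs across them on the same strand, with the hairpins in introns. It had 3.21 and 2.82 FPKM without doxycycline, against 2.60 and 2.51 FPKM with it. These libraries did not overlap, and the log2 change of 0.20 (SE 0.11) did not pass (limma adjusted p = 0.206). The sources used here do not name this gene as Dleu2, and it was not counted as a host.

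The rows of all 23 hairpins were listed at 0 FPKM in every library, so the hosts are read from their longer transcripts alone. These hairpins are 66 to 107 nt, below the minimum of 200 nt used here, so a 0 is not read as absence. Transcripts under 200 nt held 98.9% to 99.6% of the FPKM of each library and were left out of the comparisons. No isoform could be called: limma passed 0 of the 32943 isoforms tested (0%), with 6053 at an unadjusted p under 0.05 and a lowest adjusted p of 0.0542. Of the 61 host isoforms, 31 were tested, 7 had an unadjusted p under 0.05 and 8 were listed at 0 in every library. The values of isoforms above are therefore descriptions.

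The order of the hosts by level, in FPKM and so per length, was alike at the top in both conditions, with Mcm7 above Smc4 above Larp7 in every library. Without doxycycline Ctdsp1 and Ctdsp2 came next, then Mir17hg and Ska2, whose libraries overlapped (14.4 ± 2.82 and 14.0 ± 0.240 FPKM, SD, n = 2 each). With doxycycline the libraries of Mir17hg and Ctdsp1 overlapped (24.5 ± 3.61 and 24.2 ± 0.0735 FPKM, SD, n = 2 each), and Ctdsp2 and Ska2 followed. At the bottom, Ctdspl lay above Mir22hg without doxycycline, and Mir22hg lay above Ctdspl with it, in every library.

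Of 13268 genes tested, 9327 had a mean of at least 5 FPKM and were compared with Mir17hg by the Euclidean distance between log2 values centred over the 4 libraries. The nearest were Gm13359 (0.0577), Uchl4 (0.0590) and Slc7a1 (0.0982), a transporter of cationic amino acids. Slc7a1 had 19.4 and 16.0 FPKM without doxycycline, against 32.1 and 27.4 FPKM with it.

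The protein partners of the coding hosts were read from the same test. Of the 5 other MCM helicase subunits, 3 were lower without doxycycline and 2 did not pass, with a median log2 change of -0.37. Over all genes tested 20.9% were lower and 40.3% passed in either direction, which is the background for each list that follows. Mcm2 had 93.1 and 109 FPKM without doxycycline, against 130 and 131 FPKM with it (-0.37, limma adjusted p = 0.0424). Mcm4 changed by -0.37 and Mcm5 by -0.39 (limma adjusted p = 0.0226 and 0.0344). None of the 5 passed with TPM (median -0.21), nor without no-doxycycline library 0, doxycycline library 0 or doxycycline library 1 (medians -0.26, -0.38 and -0.36).

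By limma 0 of the 7 other condensin subunits passed (median 0.04, 1 at an unadjusted p under 0.05). Likewise 0 of the 6 genes of the 7SK and P-TEFb list passed (median 0.06, 0 at an unadjusted p under 0.05). With TPM 2 condensin genes and 1 gene of the 7SK list were higher. Among 6 Ska and Ndc80 kinetochore genes, 1 was lower and 5 did not pass (median -0.10, but 0.05 with TPM). The lower one, Ska1, a partner of Ska2 in the Ska complex, had 19.7 and 23.1 FPKM without doxycycline, against 30.9 and 31.1 FPKM with it (-0.53, limma adjusted p = 0.0156). The Ska1 call was lost without doxycycline library 0 (adjusted p = 0.0553) or 1 (adjusted p = 0.0602).

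Of 5 relatives and partners of the Ctdsp phosphatases, 1 was higher, 1 was lower and 3 did not pass (median 0.18). Rcor1, a corepressor that binds REST, had 7.14 and 6.97 FPKM without doxycycline, against 5.49 and 4.98 FPKM with it (0.40, limma adjusted p = 0.0263). Ublcp1, a phosphatase of the proteasome, had 11.7 and 13.0 FPKM without doxycycline, against 17.3 and 16.9 FPKM with it (-0.45, limma adjusted p = 0.0169). Both calls were lost without no-doxycycline library 0, doxycycline library 0 or doxycycline library 1, and that of Rcor1 also without no-doxycycline library 1. With TPM 3 of the 5 were higher. REST itself, encoded by Rest, did not pass, with 56.2 and 53.2 FPKM without doxycycline, against 50.2 and 51.1 FPKM with it.

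Of 36 other genes that carry microRNAs, 25 were tested, and 3 were higher, 7 were lower and 15 did not pass (median -0.15), against 40.3% of all genes tested that passed. Without doxycycline library 1, 2 were higher and 4 were lower. With TPM 10 of 27 were higher and 6 were lower. The host of miR-152, Copz2, a coatomer subunit, had 12.5 and 8.84 FPKM without doxycycline, against 2.004 and 2.17 FPKM with it (2.09, limma adjusted p = 0.00260). The imprinted Mest, host of miR-335, had 35.4 and 37.3 FPKM without doxycycline, against 87.1 and 85.3 FPKM with it (-1.23, limma adjusted p = 0.00196). Gpc1, a glypican that carries miR-149, changed by -1.10, and Egfl7, the endothelial factor that carries miR-126, by -0.99 (limma adjusted p = 0.00265 and 0.0293). The Egfl7 call was lost without no-doxycycline library 0 (-0.67, adjusted p = 0.0510) or doxycycline library 1 (-0.80, adjusted p = 0.0593).

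**Figure D4:**
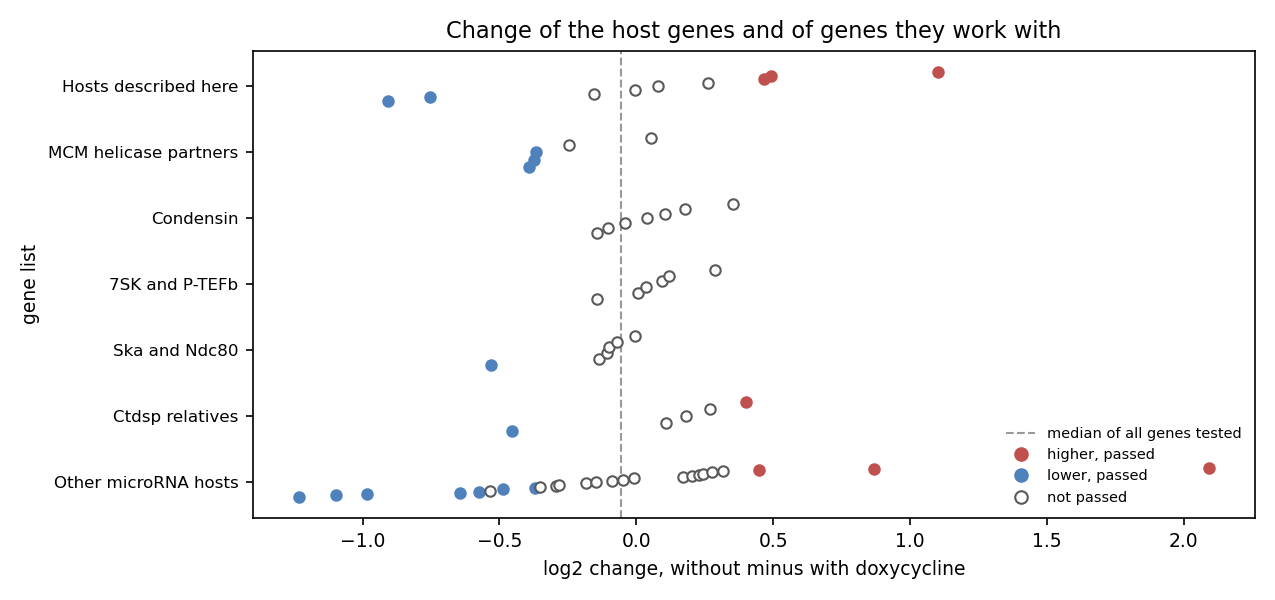
Log2 change, without minus with doxycycline, of each tested gene in the host set and in 6 lists of related genes; red and blue points passed as higher and lower, open points did not, and the dashed line is the median of all genes. The condensin and 7SK lists hold open points only, whereas the other microRNA hosts run from -1.23 (Mest) to 2.09 (Copz2).

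Each of the 7 coding hosts was searched for seed matches in its longest 3′ untranslated region, as 7 letters complementary to bases 2 to 8, on the transcript strand of GENCODE M21. They gave 12 matches in 6 hosts, and Larp7, with 240 nt, held none. Each of the 10 seeds alone has a match in 6.89% to 22.2% of all 21166 such regions. The share of regions with a match for any of the seeds was not computed, so the count has no background. Ctdsp2 and Mcm7 held a match for a seed that their own microRNAs carry, and these are shown with the other miR-26 match among the hosts. The match is in capitals.
Ctdsp2, miR-26 seed: gttgctctTACTTGAtttgcca
Smc4, miR-26 seed: ggggaaagTACTTGAtgcaata
Mcm7, miR-17 and miR-106b seed: cccatgctGCACTTTtttattc
The miR-26 match TACTTGA was in 9.96% of the 21166 regions, whose median length is 1084 nt, against regions of 3489 nt in Ctdsp2 and 3828 nt in Smc4. Ctdsp1 and Ctdspl held no miR-26 match in these windows. GCACTTT, in 12.2% of all regions, was in Mcm7, whose region is 136 nt, and in Smc4, where it overlaps the miR-301a match TTGCACT. A match is a description and no measurement of binding.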

How the data were processed

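PolyA RNA of 4 libraries (2 per condition) was used. The series' 2 spike-in samples were not used. The authors deposited FPKM per isoform. The submitters' processing notes name TopHat2 2.0.9, Cufflinks 2.1.1 and the build NCBIM37. Which library total scaled the FPKM is not given in the sources used here. Isoforms of at least 200 nt that match or share a junction with a named transcript (class code = or j in the deposited Cuffmerge annotation) were used, 141569 of 181027. Their FPKM summed to 449360 and 485192 without doxycycline, and 508954 and 535107 with it. Names came from transcript identifiers, file symbols or older symbols. Hairpin and exon positions are those of the deposited annotation.

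FPKM was summed per gene. Where the mean of a condition reached 1 FPKM, log2(FPKM + 0.5) was tested with limma 3.58.1 in R 4.3.3, with a trend, 3.10 degrees of freedom from the prior and 2 from the residuals. P-values were adjusted over all 13268 genes. Depth was read from steps of whole reads: 100% of low values were whole within 0.1 read in the number-1 libraries, 41.8% and 43.0% in the number-0 libraries, and 20% by chance. The read floor covers counting error only. GENCODE M21 and RefSeq were used for names and sequences. Python 3.11.15, numpy 2.4.6, pandas 2.3.3 and matplotlib 3.10.9 did the rest. The limma fit and the search for depth were tested on simulated data.

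All members are named, with at most 4 passing genes of largest change per list, the 3 genes most like Mir17hg, and at most 3 leading isoforms per host plus those of at least 1 FPKM with a hairpin in an exon. Tlcd2, AC154660.1, Rest, Ap4m1, Cops6, Gm11491, Zgrf1 and the 2407-nt Mir17hg isoform fall outside this rule. They were chosen for their position or role after values were seen. Members and lists were chosen with earlier results of these data known.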

Additional observations from a re-analysis of the deposited data

Results flagged for a closer look

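A transcript of 1614 nt with a single exon, at chr14:62249334-62250947 on the minus strand (NCBIM37), was left out of the comparisons for its class in the annotation (it overlaps the miR-16-1 entry without sharing its structure). It holds the hairpins of miR-15a and miR-16-1 in its exon and starts at the first base of the miR-15a hairpin. It was measured at 8.30 and 6.11 FPKM without doxycycline, and 7.37 and 5.22 FPKM with it. The 2 number-1 libraries (6.11 without and 5.22 with doxycycline) are above the level of 3 reads, which is 0.0447 FPKM without and 0.0450 FPKM with doxycycline; for the number-0 libraries that level is unknown. The conditions overlap, with means of 7.21 ± 1.55 FPKM without and 6.29 ± 1.52 FPKM with doxycycline (SD, n = 2 each), and the difference was not tested.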

How the results depend on the processing

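Under the alternatives, 144 results kept their direction and their side of the threshold, or, for counts, stayed within 1.5 times. These include the count of host isoforms passing, which was 0 throughout. Of the others, 10 counts moved further, 7 changes reversed, 11 lost their call and 4 gained one. The 5351 genes passing became 2565 with full matches to known transcripts only, 2023 with the most abundant isoform alone, and 3065 to 4197 when 1 library was left out. The 5 passing hosts became 3 at a minimum of 5 FPKM (7 hosts tested), 3 with the most abundant isoform, and 2 to 5 when 1 library was left out. Mir17hg missed the threshold with no filter (-0.75, adjusted p = 0.0707), TPM (-0.60), full matches only (-0.65) and the most abundant isoform (-0.68), and ranged from -0.95 to -0.56 with 1 library left out. Ctdspl missed it with the most abundant isoform (1.38, adjusted p = 0.0547). Mir22hg passed in all 14 alternatives. Mcm7 turned to 0.16 with TPM and 0.035 with full matches, and ranged from -0.17 to 0.17 with 1 library left out. Smc4 turned to 0.0035 with TPM. Larp7 passed with TPM (0.24) and turned to -0.032 with full matches and with the most abundant isoform. Ska2 passed with TPM (0.42). With 1 library left out, Ctdsp1 ranged from 0.44 to 0.49 and Ctdsp2 from 0.48 to 0.51. With 1 library in a condition, that library is assumed to vary like the other condition's. The cause of these changes was not tested.

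With the library number as a replicate block, 8123 genes passed, and Smc4 (-0.16, adjusted p = 0.0418) and Ska2 (0.26, adjusted p = 0.0295) passed too, as did 8 higher and 9 lower of the 25 other microRNA hosts and 3 higher and 1 lower of the 5 Ctdsp relatives. Deviations of same-numbered libraries correlated at 0.46 over genes, with only 2 pairs. The labels tie no numbers together, so the libraries were not treated as paired. Low values were whole reads in both number-1 libraries (100%) but mostly not in the number-0 libraries (41.8% and 43.0%). The number thus goes with a difference shared by both conditions, which the main fit leaves in the spread. What that difference is was not tested.

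Precision is limited by 2 libraries per condition and by a depth that is unknown in 2 of the 4.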
